A study of Homo sapiens with 12 samples.

Results

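The BH3-only genes and the pore formers of the BCL2 family were followed in 2 lymphoma cell lines given the histone deacetylase inhibitor chidamide. The 10 genes were BCL2L11, BBC3, BID, BMF, PMAIP1, BAD, BIK and HRK, which encode BH3-only proteins, and BAX and BAK1, which encode the pore formers. They were picked by gene symbol from the 26364 genes of the deposited count table, and all 10 were present and passed the filter on low counts that left 15087 tested genes. HRK held only 1, 4 and 4 counts in the Granta-519 vehicle libraries. It passed through the other groups, which include the Granta-519 chidamide libraries with 21, 26 and 21 counts.

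The 4 groups were libraries labelled JeKo-1 with 4 µM chidamide, libraries labelled JeKo-1 with vehicle, Granta-519 with 4 µM chidamide and Granta-519 with vehicle. Exposure lasted 12 h in every group, and each group held 3 polyadenylated RNA libraries of 12873642 to 16592694 counts. Chidamide is a benzamide that blocks class I histone deacetylases and HDAC10. JeKo-1 and Granta-519 are immortal lines, both derived from mantle cell lymphoma, so a difference between them is one between single lines. No label said whether the replicates were separate cultures, so each p-value refers to the scatter of these libraries alone, and that scatter may be technical.

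In the mitochondrial route to apoptosis, BH3-only proteins sense stress and bind the antiapoptotic proteins BCL2, BCL-XL, MCL1, BCL-W and BFL1 through a short helix, the BH3 domain. Some of them, such as BIM, PUMA and truncated BID, can also activate BAX and BAK directly, whereas others, such as NOXA, BAD and HRK, mainly occupy antiapoptotic partners. Once free and active, BAX and BAK permeabilise the outer mitochondrial membrane, cytochrome c escapes and caspases are switched on by the apoptosome. B lymphocytes are known to depend on BIM for their removal, and many B-cell lymphomas hold it in check with BCL2 or MCL1.

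All 6 B-cell markers were detected in each group, with summed levels of 2780 to 4150 counts per 1000000 (CPM, scaled by TMM) over the 12 libraries. The libraries labelled JeKo-1 went against that label in a defining pair of mantle cell lymphoma genes. SOX11 had 0 counts in all of them, and the sum of CCND1 and SOX11 was 0.782 to 1.06 CPM with chidamide and 0.0828 to 0.15 CPM with vehicle. In Granta-519 that sum was 1760 to 1950 CPM with chidamide and 2220 to 2320 CPM with vehicle. The libraries labelled JeKo-1 are therefore called by their label throughout. The 6 myeloid markers summed to 12.4 to 13.3 CPM with chidamide and 0.414 to 0.888 CPM with vehicle under the JeKo-1 label, and to 19.4 to 21.3 CPM with chidamide and 1.07 to 1.64 CPM with vehicle in Granta-519. The 8 T-cell and natural killer markers summed to 5.4 to 8.09 CPM with chidamide and 2.73 to 4.35 CPM with vehicle under the JeKo-1 label, and to 2.24 to 3.22 CPM with chidamide and 0.533 to 0.885 CPM with vehicle in Granta-519. Most of the myeloid sum was CSF1R in every group except the vehicle libraries labelled JeKo-1, where LYZ led, while FCGR3A had no count in any library, and CD3D had 1 count over all 12. The 4 erythroid markers summed to at most 1.34 CPM in any library, and the 6 epithelial and stromal markers, VIM and COL1A1 above all, to 56 to 60.1 CPM with chidamide and 49.8 to 52.1 CPM with vehicle under the JeKo-1 label, and to 468 to 480 CPM with chidamide and 553 to 580 CPM with vehicle in Granta-519. The part of these markers in the results was not tested. In bulk RNA, fewer cells of a type and less RNA per cell cannot be told apart, and total RNA per cell was not measured.

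The effect of 12 h of chidamide on the 10 genes was read first, under the JeKo-1 label. BMF was 3.77-fold and PMAIP1 1.98-fold as high as with vehicle. BAX, BAD, BID, BIK, BAK1 and BBC3 were lower, BAX and BAD by the largest margin, while BCL2L11 and HRK stood near their vehicle levels. In Granta-519, HRK was 7.72-fold, BMF 4.02-fold, BCL2L11 2.15-fold and PMAIP1 1.82-fold as high with chidamide, BIK was slightly higher, and BAX, BAD, BID, BAK1 and BBC3 were lower. BMF and PMAIP1 thus rose in both lines, and both pore formers fell in both lines. A rise of at least 2-fold was seen under the JeKo-1 label for BMF alone of the 10, as for 17.1% of all tested genes, and in Granta-519 for HRK, BMF and BCL2L11, as for 18.2% of all tested genes. These counts depend on the processing, since PMAIP1 under the JeKo-1 label ran between 0.90 and 1.13 on the log2 scale over the alternatives. It passed 2-fold in settings that included each other scaling and the score of the authors' other table. Leaving out chidamide replicate 2 or vehicle replicate 1 or 3 of that label did so too. In Granta-519, BCL2L11 ran between 0.83 and 1.20 and fell short with no filter on low counts and on log2(score + 1) of the authors' other table, and BMF in both lines and HRK in Granta-519 fell short on that log2(score + 1) scale.

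Of the 10 genes, 2 rose and 6 fell under the JeKo-1 label, where 35.3% of all tested genes rose and 31.1% fell (quasi-likelihood test in edgeR, adjusted p under 0.05 by Benjamini-Hochberg), 66.4% in either direction. In Granta-519, 5 rose and 5 fell, against 39.6% and 31.3% of all tested genes, 70.9% in either direction. With so many genes called, a call by itself does not set the 10 apart. The median log2 change of the 10 genes was −0.37 under the JeKo-1 label, where that of all tested genes was 0.04, and −0.11 in Granta-519, where that of all tested genes was 0.08. Chidamide and vehicle libraries did not overlap in 8 of the 10 genes under the JeKo-1 label and in 10 of 10 in Granta-519, as in 66.6% and 73.8% of all tested genes. Rises made up 53.1% of all calls under the JeKo-1 label, but 64.9% with upper-quartile scaling and 63.6% with library totals alone, which shifted the median of all genes by 0.15 and 0.13 on the log2 scale. TMM factors were 0.928 to 0.938 in the vehicle libraries under that label and 1.016 to 1.03 in the other 9.

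**Figure D1:**
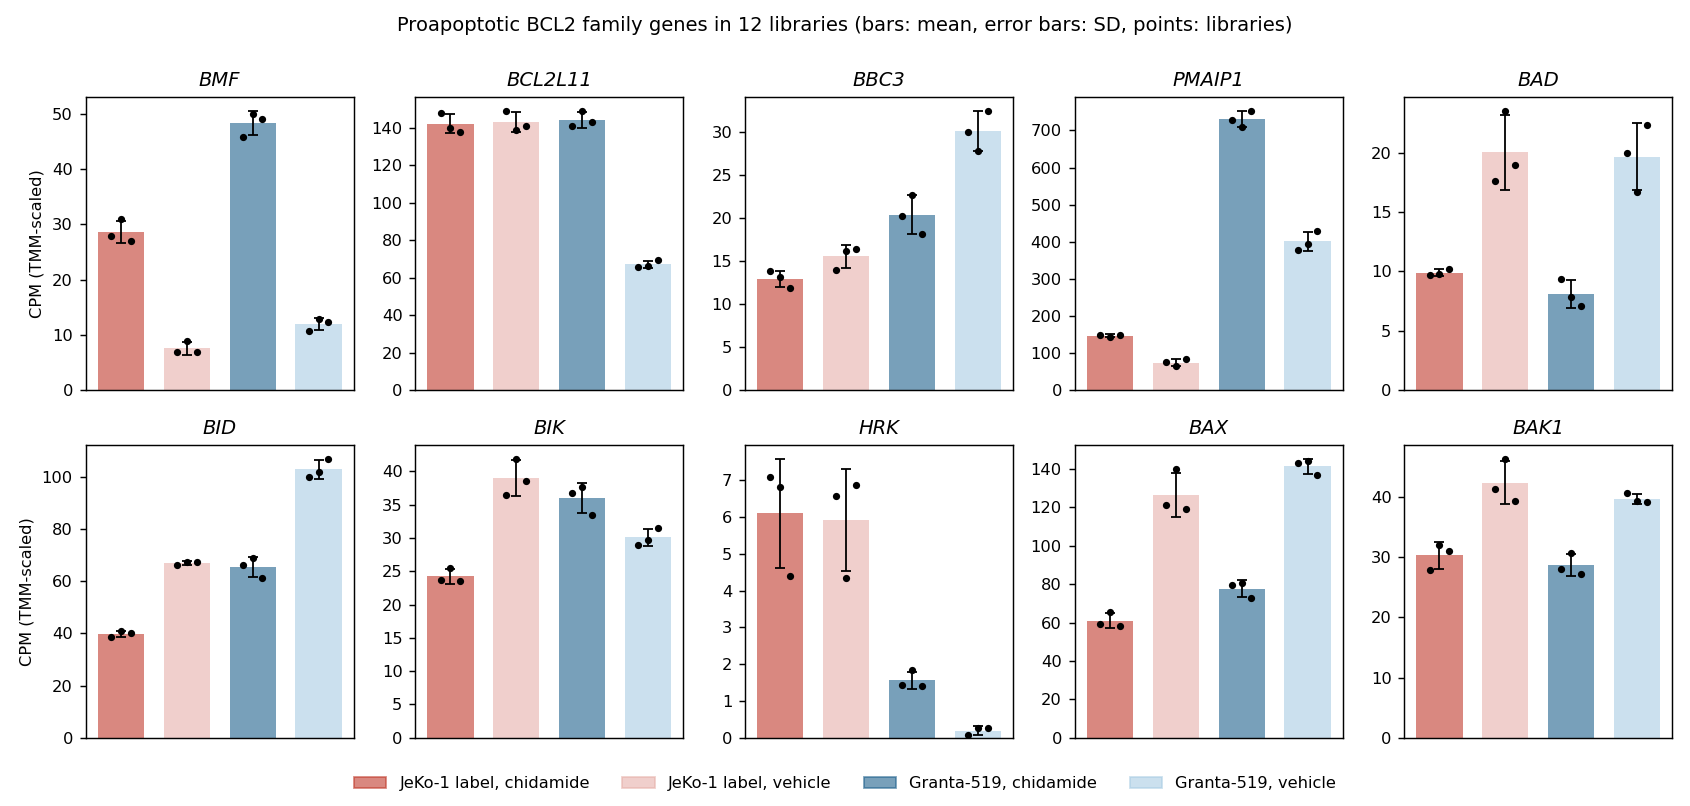
CPM of each of the 10 genes (y axis, TMM-scaled, a separate scale for each gene) in the 4 groups; bars are means of 3 libraries, error bars are SD and points are libraries. BMF stands at 27 to 30.9 CPM with chidamide and 6.87 to 8.84 CPM with vehicle under the JeKo-1 label, and BCL2L11 is low only in the Granta-519 vehicle libraries, at 65.7 to 69.5 CPM.

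Promoter sequence is shown for the 5 genes that passed the test with at least a 2-fold change in either line, so that their start regions can be compared directly. Each line is the 190-base stretch that lies 250 to 61 bases before the RefSeq start (the farthest upstream one where several were listed), read 5′ to 3′ on the strand of the gene from the build GRCh38.p14, which is not the hg19 build that the counts were made on. Capitals mark the GC box GGGCGG, the E box CACGTG, the forkhead (FOXO) motif GTAAACA and the CAAT box CCAAT, each searched on both strands; no printed match overlaps another.
BMF: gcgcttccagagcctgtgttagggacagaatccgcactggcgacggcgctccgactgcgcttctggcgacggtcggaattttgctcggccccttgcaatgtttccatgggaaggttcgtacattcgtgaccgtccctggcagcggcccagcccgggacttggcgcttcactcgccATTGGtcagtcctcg
BCL2L11: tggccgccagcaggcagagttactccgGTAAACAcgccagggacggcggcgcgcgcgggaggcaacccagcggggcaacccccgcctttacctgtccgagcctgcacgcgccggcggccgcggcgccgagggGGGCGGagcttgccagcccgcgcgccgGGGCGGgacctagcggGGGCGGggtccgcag
BAD: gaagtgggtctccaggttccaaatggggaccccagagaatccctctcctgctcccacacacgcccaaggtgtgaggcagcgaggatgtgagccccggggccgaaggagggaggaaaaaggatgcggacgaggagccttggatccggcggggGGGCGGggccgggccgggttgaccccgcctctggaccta
HRK: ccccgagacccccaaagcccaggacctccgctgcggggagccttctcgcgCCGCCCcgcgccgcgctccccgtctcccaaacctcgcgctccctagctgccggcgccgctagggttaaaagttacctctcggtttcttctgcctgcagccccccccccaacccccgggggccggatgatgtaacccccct
BAX: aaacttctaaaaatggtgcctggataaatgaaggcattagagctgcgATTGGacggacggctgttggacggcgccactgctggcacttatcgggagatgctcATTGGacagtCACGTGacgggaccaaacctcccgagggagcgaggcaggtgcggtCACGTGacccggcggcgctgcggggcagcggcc

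The BMF window (chr15:40108940-40109129, minus strand) held 1 CAAT box, and that of BAX (chr19:48954625-48954814, plus strand) held 2 E boxes and 2 CAAT boxes. The BCL2L11 window (chr2:111120664-111120853, plus strand) held 3 GC boxes and 1 forkhead motif. Those of BAD (chr11:64284765-64284954, minus strand) and HRK (chr12:116881502-116881691, minus strand) held 1 GC box each. Among the windows that are not printed, PMAIP1 had 4 GC boxes, BAK1 had 2 GC boxes and 1 CAAT box, BBC3 had 1 E box and 1 CAAT box, and BID had none of the 4 motifs; BIK had no entry in the table. Over all 35116 windows of this length, a GC box was present in 33%, an E box in 4.13%, a forkhead motif in 2.24% and a CAAT box in 25.8%. By base composition, 78.4% of the BCL2L11 window was G or C, the 94.7th percentile of all windows. PMAIP1 followed at 76.8%, the 92.7th percentile, and HRK at 71.1%, the 82.9th. The share was 67.4% for BAD, 62.6% for BMF and 61.1% for BAX. It was 54.2% for BAK1, 50% for BBC3 and 47.9% for BID. The letters alone do not show that a factor binds.

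BCL2L11 encodes BIM, which binds every main antiapoptotic family member and can activate BAX and BAK. Loss of both copies of this gene has been described in the JeKo-1 line, so its RNA in the libraries labelled JeKo-1 is a further point that goes against the label. Under the JeKo-1 label its level was 148, 140 and 138 CPM with chidamide and 149, 139 and 141 CPM with vehicle. In Granta-519 it was 141, 149 and 143 CPM with chidamide and 65.7, 66.2 and 69.5 CPM with vehicle. The Granta-519 vehicle libraries were the low ones, and with chidamide that line reached the range in which both groups labelled JeKo-1 lay. The log2 change was −0.01 ± 0.05 (SE) under the JeKo-1 label (edgeR, adjusted p = 0.930) and 1.1 ± 0.05 in Granta-519 (edgeR, adjusted p = 2.01e-26). The difference of these changes, JeKo-1 label minus Granta-519, was −1.11 ± 0.07 and passed the test (edgeR, adjusted p = 1.12e-19). The direction under the JeKo-1 label depended on scaling, since it was 0.14 with upper-quartile scaling (edgeR, adjusted p = 0.00934) and 0.12 with library totals alone (edgeR, adjusted p = 0.0204). BCL2L11 shares 727 of its exonic bases, 10.9%, with the opposite-strand lincRNA MIR4435-2HG, and the strand setting of the counting is not stated in the sources used here. That partner averaged 10.8 CPM with chidamide and 13.6 CPM with vehicle under the JeKo-1 label, and 0.345 CPM with chidamide and 0.0428 CPM with vehicle in Granta-519.

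BBC3 encodes PUMA, a BH3-only protein that binds all the main antiapoptotic family members. It stood at 13.8, 13.1 and 11.9 CPM with chidamide and 14, 16.2 and 16.4 CPM with vehicle under the JeKo-1 label. Granta-519 libraries held 20.2, 22.7 and 18.2 CPM with chidamide and 30, 27.8 and 32.4 CPM with vehicle. The groups did not overlap in either line, although the gap under the JeKo-1 label was narrow. Its log2 change was −0.26 ± 0.11 under the JeKo-1 label (edgeR, adjusted p = 0.0290) and −0.56 ± 0.09 in Granta-519 (edgeR, adjusted p = 2.92e-07). The fall under the JeKo-1 label missed the threshold in 12 of 15 alternatives, with an adjusted p over all 15 between 0.0147 and 0.356 (edgeR). It was lost when chidamide replicate 2 or 3 or vehicle replicate 2 or 3 was left out (edgeR, adjusted p = 0.0621, 0.160, 0.0994 and 0.0966). The difference between the lines was 0.30 ± 0.14 and did not pass (edgeR, adjusted p = 0.0857), but it passed in 6 of 20 alternatives. Those were upper-quartile scaling, library totals, no count filter, the score of the authors' other table with either pseudocount, and 1 library left out. Without that library, Granta-519 chidamide replicate 2, the difference was 0.38 (edgeR, adjusted p = 0.0392).

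BID encodes the protein that caspase 8 cleaves to carry a death-receptor signal to mitochondria. Its level was 38.7, 40.9 and 40.1 CPM with chidamide and 66.1, 67.4 and 67.5 CPM with vehicle under the JeKo-1 label. In Granta-519 it was 66.1, 69 and 61.2 CPM with chidamide and 100, 102 and 107 CPM with vehicle. Chidamide libraries were lower in both lines without overlap. The fall came to −0.75 ± 0.06 on the log2 scale under the JeKo-1 label (edgeR, adjusted p = 4.67e-16) and −0.65 ± 0.06 in Granta-519 (edgeR, adjusted p = 2.21e-15), and the difference of −0.10 ± 0.08 did not pass (edgeR, adjusted p = 0.398).

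BMF, a BH3-only protein that the dynein light chain DYNLL2 holds at the actin cytoskeleton, had the largest rise of the 10 under the JeKo-1 label. There it stood at 27.9, 30.9 and 27 CPM with chidamide and 6.97, 8.84 and 6.87 CPM with vehicle. In Granta-519 it stood at 45.9, 50 and 49.1 CPM with chidamide and 10.8, 12.9 and 12.3 CPM with vehicle. The lowest chidamide library lay well above the highest vehicle library in each line. Log2 changes were 1.92 ± 0.11 under the JeKo-1 label (edgeR, adjusted p = 6.02e-23) and 2.01 ± 0.09 in Granta-519 (edgeR, adjusted p = 9.03e-27). Among all tested genes, these sizes were at the 88th and 92nd percentile of the absolute log2 changes. The difference between the lines was −0.09 ± 0.15 (edgeR, adjusted p = 0.685), which does not show that the lines respond alike. BMF shares 461 exonic bases, 8.46%, with the antisense gene BMF-AS1, which was not listed in the count table.

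PMAIP1 encodes NOXA, which binds MCL1 and BFL1 and marks MCL1 for degradation. Its level was 150, 144 and 148 CPM with chidamide and 75.5, 64.8 and 83.9 CPM with vehicle under the JeKo-1 label. In Granta-519 it was 729, 710 and 752 CPM with chidamide and 379, 395 and 429 CPM with vehicle. All chidamide libraries were higher in both lines, and every Granta-519 library was above every library labelled JeKo-1. The log2 change was 0.98 ± 0.06 under the JeKo-1 label (edgeR, adjusted p = 3.41e-17) and 0.87 ± 0.05 in Granta-519 (edgeR, adjusted p = 9.87e-18). The difference of 0.12 ± 0.08 did not pass (edgeR, adjusted p = 0.235), but without vehicle replicate 3 of the JeKo-1 label it was 0.21 and passed (edgeR, adjusted p = 0.0166).

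HRK encodes harakiri, a BH3-only protein that binds BCL2 and BCL-XL and is best known in neurons. Its level was 7.09, 6.83 and 4.39 CPM with chidamide and 6.56, 4.35 and 6.87 CPM with vehicle under the JeKo-1 label, so these groups overlapped. In Granta-519 it was 1.44, 1.84 and 1.42 CPM with chidamide, from 21, 26 and 21 counts, and 0.0651, 0.253 and 0.266 CPM with vehicle, from 1, 4 and 4 counts. The Granta-519 chidamide libraries were below every library labelled JeKo-1. The log2 change was 0.04 ± 0.19 under the JeKo-1 label (edgeR, adjusted p = 0.880) and 2.95 ± 0.47 in Granta-519 (edgeR, adjusted p = 2.14e-07). The difference of −2.91 ± 0.52 passed (edgeR, adjusted p = 6.52e-06). On the length-scaled score of the authors' other table, with a pseudocount of 1 that exceeds the scores of this gene, the difference was −0.13 and did not pass (limma, adjusted p = 0.265).

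BAD, which binds BCL2, BCL-XL and BCL-W and is held in the cytosol by 14-3-3 proteins when phosphorylated, fell in both lines. It stood at 9.68, 9.81 and 10.2 CPM with chidamide and 17.6, 23.5 and 19 CPM with vehicle under the JeKo-1 label. Granta-519 libraries held 9.38, 7.84 and 7.11 CPM with chidamide and 20, 16.7 and 22.3 CPM with vehicle. Every chidamide library was below every vehicle library of its line. Log2 changes were −1.01 ± 0.12 under the JeKo-1 label (edgeR, adjusted p = 9.55e-11) and −1.28 ± 0.12 in Granta-519 (edgeR, adjusted p = 1.67e-13), with a difference of 0.26 ± 0.17, which missed the threshold (edgeR, adjusted p = 0.239). BAD shares 404 exonic bases, 23.7% of its exonic length, with GPR137 on the opposite strand. GPR137 was also lower with the drug, at 22.6 CPM with chidamide and 43.4 CPM with vehicle under the JeKo-1 label and at 15.5 CPM with chidamide and 39.8 CPM with vehicle in Granta-519. No source used here says how reads in the shared stretch were assigned, and the part of GPR137 in the change of BAD was not tested.

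BIK, a BH3-only protein of the endoplasmic reticulum, moved in opposite directions in the lines. It stood at 23.7, 25.5 and 23.5 CPM with chidamide and 36.5, 41.9 and 38.5 CPM with vehicle under the JeKo-1 label. In Granta-519 it stood at 36.8, 37.7 and 33.5 CPM with chidamide and 29, 29.7 and 31.5 CPM with vehicle. Neither line had overlapping groups. The log2 change was −0.68 ± 0.08 under the JeKo-1 label (edgeR, adjusted p = 4.63e-11) and 0.26 ± 0.08 in Granta-519 (edgeR, adjusted p = 0.00250), and the difference of −0.94 ± 0.11 passed (edgeR, adjusted p = 3.30e-10). With no filter on low counts the Granta-519 change was 0.15 and no longer passed (edgeR, adjusted p = 0.104).

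Both pore formers were lower with chidamide in both lines. BAX, which moves to mitochondria from the cytosol when activated, stood at 59.1, 65.4 and 58.1 CPM with chidamide and 121, 140 and 119 CPM with vehicle under the JeKo-1 label. Granta-519 libraries held 79.6, 80.8 and 72.6 CPM with chidamide and 143, 144 and 137 CPM with vehicle. Its log2 change was −1.06 ± 0.06 under the JeKo-1 label (edgeR, adjusted p = 1.21e-22), where only 2.65% of tested genes fell by at least 2-fold as BAX and BAD did. Over the alternatives BAX ran between −1.10 and −0.83 there and BAD between −1.09 and −0.56. BAX fell short of 2-fold with upper-quartile scaling, library totals and the length-scaled score, and without vehicle replicate 2 of that label. BAD fell short in settings that included each other scaling, the length-scaled score, and leaving out chidamide replicate 1 or 2 or vehicle replicate 2. In Granta-519, where BAD alone of the 10 was among the 2.41% that fell so far (−0.81 on log2(score + 1)), BAX changed by −0.87 ± 0.06 (edgeR, adjusted p = 1.08e-19). The difference of −0.19 ± 0.08 missed the threshold (edgeR, adjusted p = 0.0529). It passed when Granta-519 chidamide replicate 3, chidamide replicate 2 of the JeKo-1 label, or its vehicle replicate 1 or 3 was left out (edgeR, adjusted p = 0.0145, 0.0205, 0.0244 and 0.0241).

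BAK1 encodes BAK, which sits in the outer mitochondrial membrane of healthy cells. Its level was 27.9, 32.1 and 31 CPM with chidamide and 41.4, 46.4 and 39.4 CPM with vehicle under the JeKo-1 label. In Granta-519 it was 28.1, 30.7 and 27.2 CPM with chidamide and 40.6, 39.3 and 39.2 CPM with vehicle. Each chidamide library was below the vehicle libraries of its line, and the lines were alike in range. Log2 changes were −0.49 ± 0.08 under the JeKo-1 label (edgeR, adjusted p = 1.55e-07) and −0.47 ± 0.08 in Granta-519 (edgeR, adjusted p = 3.68e-07), with a difference of −0.02 ± 0.11 (edgeR, adjusted p = 0.959). BAK1 has a pair of processed pseudogenes, BAK1P1 and BAK1P2, which were not listed in the count table, so its reads may be uncertain.

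**Figure D2:**
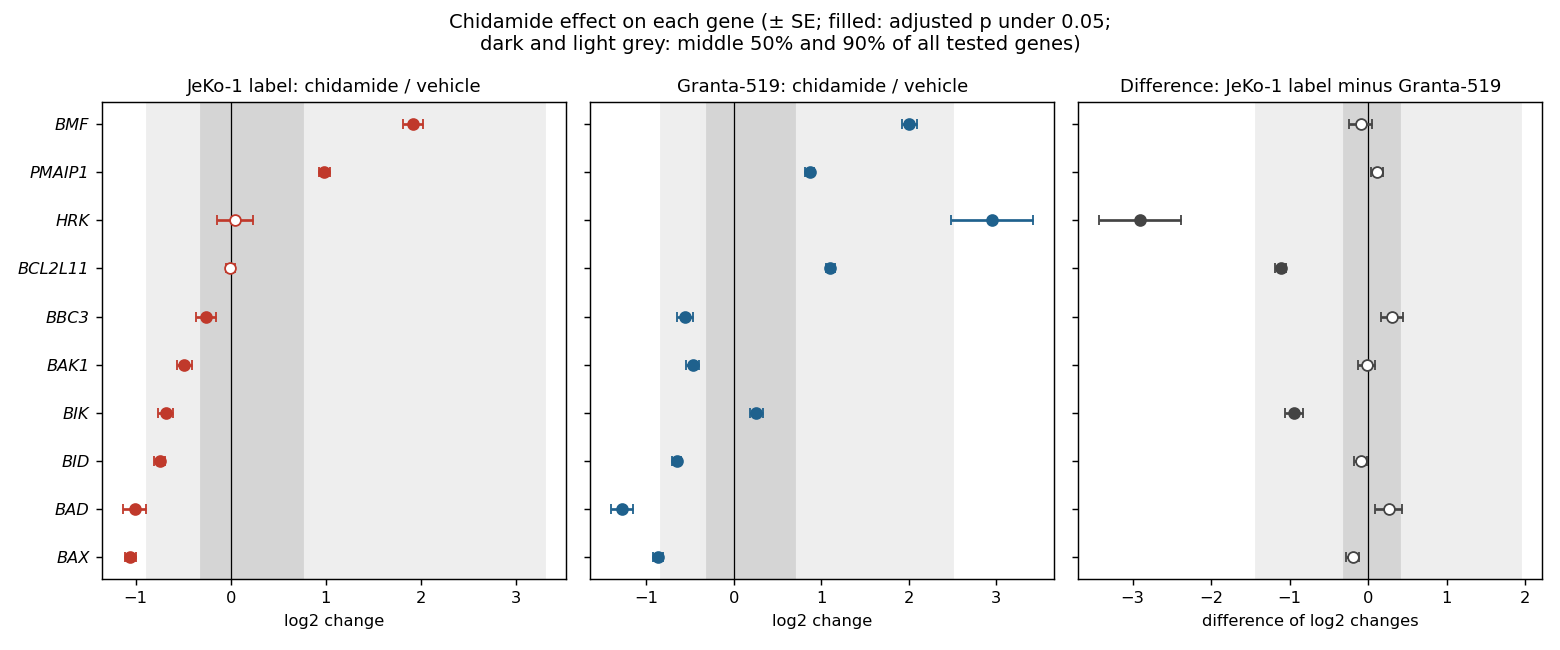
Log2 change with chidamide for the 10 genes (x axis) under the JeKo-1 label, in Granta-519, and the difference of the changes, with SE bars; filled points had an edgeR adjusted p under 0.05, and dark and light grey bands hold the middle 50% and 90% of all tested genes. In the right panel BCL2L11, BIK and HRK are filled, at −1.11, −0.94 and −2.91.

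The next comparison asked whether the drug acted differently on these genes in the lines. The change was lower under the JeKo-1 label for BCL2L11, BIK and HRK and passed in the higher direction for 0 of the 10, whereas among all tested genes 19.5% passed lower and 20% higher, 39.5% in all. The DESeq2 test also called 0 in the higher direction. At an unadjusted p under 0.05, 1 of the 10, BBC3, was higher, as were 23.9% of all tested genes. For BMF, PMAIP1, BAD, BID and BAK1 the differences ranged between −0.10 and 0.26 on the log2 scale and did not pass, which does not show equal responses. With library totals alone BBC3 and PMAIP1 also passed in the higher direction, and the share of higher calls among all called genes was 70% in place of 50.6%.

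The lines also differed before treatment. In vehicle, HRK was higher under the JeKo-1 label by 4.87 ± 0.36 on the log2 scale (edgeR, adjusted p = 2.91e-18), BCL2L11 by 1.09 ± 0.05 (edgeR, adjusted p = 5.55e-27) and BIK by 0.37 ± 0.08 (edgeR, adjusted p = 1.92e-05). PMAIP1 was lower under that label, at a log2 ratio of −2.43 ± 0.06 (edgeR, adjusted p = 1.57e-30), and so were BBC3, BMF, BID and BAX, at −0.96 ± 0.10, −0.67 ± 0.12, −0.62 ± 0.06 and −0.16 ± 0.05. In all, 3 of the 10 genes were higher and 5 lower under the JeKo-1 label, where 35.5% of all tested genes were higher and 44.3% lower, 79.8% in either direction. Libraries of the lines did not overlap in 7 of the 10 genes, as in 79.4% of all tested genes. BAX overlapped between the lines, and its call was lost without vehicle replicate 3 of the JeKo-1 label (edgeR, adjusted p = 0.0716).

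With chidamide the order of the lines turned for BIK, and the gap in BCL2L11 and HRK was smaller. The BCL2L11 ratio, JeKo-1 label over Granta-519, was −0.02 ± 0.05 (edgeR, adjusted p = 0.701), that of BIK was −0.57 ± 0.08 (edgeR, adjusted p = 3.90e-09) and that of HRK was 1.96 ± 0.24 (edgeR, adjusted p = 7.54e-11). BIK was thus lower under the JeKo-1 label with the drug and higher in vehicle. PMAIP1 had a ratio of −2.31 ± 0.05, and BMF, BID, BBC3 and BAX were lower under the JeKo-1 label by ratios of −0.76 ± 0.08, −0.71 ± 0.06, −0.66 ± 0.10 and −0.35 ± 0.06. Of the 10 genes, 2 were higher and 6 lower, against 36.4% and 45.3% of all tested genes (81.7% in either direction), and 8 did not overlap, as in 83.2% of all tested genes. The second higher gene was BAD, at 0.29 ± 0.14 (edgeR, adjusted p = 0.0456), a call that was lost in 10 of 15 alternatives. Leaving out Granta-519 replicate 2 or 3 or any 1 of the 3 replicates of the JeKo-1 label ended it (edgeR, adjusted p = 0.130, 0.245, 0.0745, 0.0774 and 0.124).

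**Figure D3:**
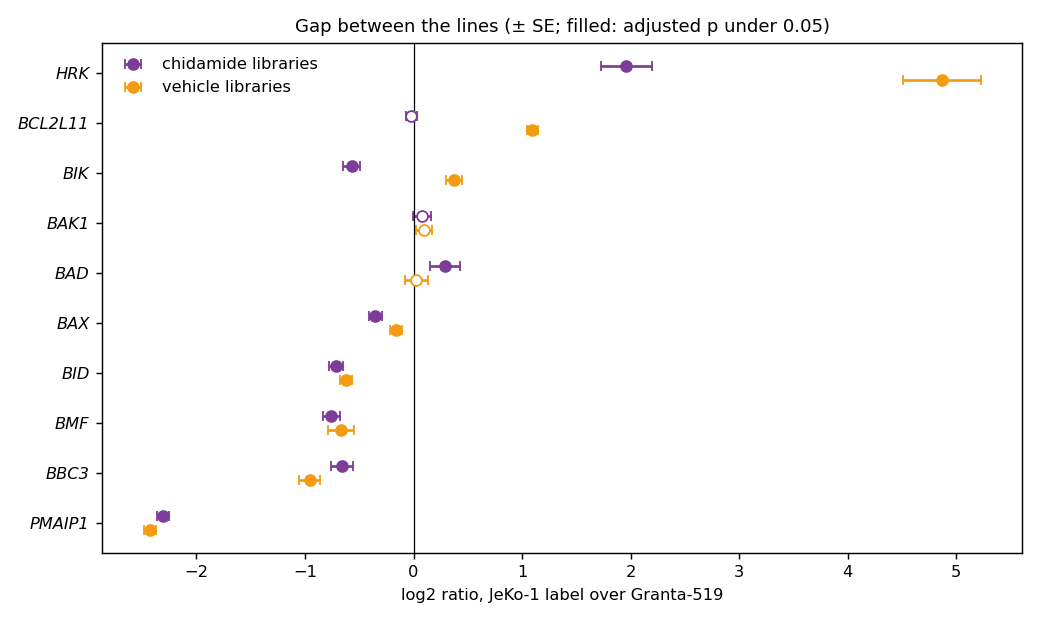
Log2 ratio of the JeKo-1 label over Granta-519 (x axis) for the 10 genes in chidamide libraries (purple) and vehicle libraries (orange), with SE bars; filled points had an edgeR adjusted p under 0.05. BCL2L11 is at −0.02 with chidamide and 1.09 with vehicle, and PMAIP1 lies farthest to the left at −2.31 with chidamide and −2.43 with vehicle.

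Levels of different genes were set side by side only on the deposited length-scaled score, whose length constant was not described in the sources used here. PMAIP1 had the highest score with chidamide under the JeKo-1 label (15.5 ± 0.334, SD, n = 3), and in Granta-519 with chidamide (76.7 ± 2.39) and with vehicle (42.4 ± 2.65). In the vehicle libraries labelled JeKo-1 BAX was first at 12.3 ± 1.05, ahead of BIK at 7.58 ± 0.504 and PMAIP1 at 7.16 ± 0.955, which overlapped each other. BAX came second in the other 3 groups, at 6.50 ± 0.402 with chidamide under the JeKo-1 label, 8.29 ± 0.452 in Granta-519 with chidamide and 15.2 ± 0.429 in Granta-519 with vehicle.

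BCL2L11 ranked at place 4 with chidamide and 5 with vehicle under the JeKo-1 label, and at place 5 with chidamide and 8 with vehicle in Granta-519. HRK and BMF held the lowest places in every group except that BAD, at 1.1 ± 0.156, overlapped BMF, at 1.06 ± 0.0476, in Granta-519 with chidamide. Under the JeKo-1 label with chidamide, HRK at 0.674 ± 0.162 and BMF at 0.628 ± 0.0418 overlapped, as did BID and BAK1, and BAD and BBC3. BAX and BIK, and BID and BCL2L11, overlapped in Granta-519 with chidamide, and BBC3 and BAD did so with vehicle. All other neighbours in these orders were apart in each of their 3 libraries. With CPM, which has no length scaling, in place of the score, 24 of the 40 ranks moved. With CPM per kilobase of the longest GENCODE transcript, 14 of the 40 moved, so the order depends on the length used.

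**Figure D4:**
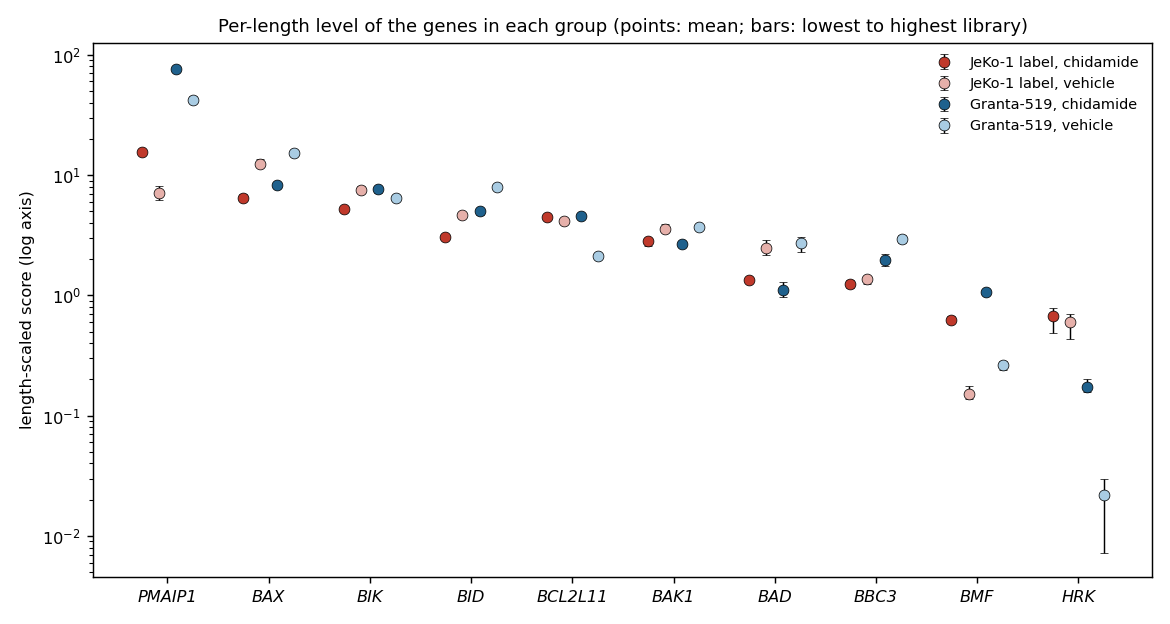
Length-scaled score (y axis, log scale) of the 10 genes in the 4 groups; points are means of 3 libraries and bars run between the lowest and the highest library. PMAIP1 reaches 76.7 in Granta-519 with chidamide, and HRK is lowest at 0.0217 in Granta-519 with vehicle.

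Genes with the most similar pattern were sought for BMF, which changed most under the JeKo-1 label, and for HRK, which changed most in Granta-519. The measure was the root mean square difference of centred log2 CPM over the 12 libraries, and it describes the pattern only. For BMF the nearest genes were CDC42EP3 at 0.18, SP140 at 0.19 and LGMN at 0.20. CDC42EP3, an effector of the small GTPase CDC42, averaged 75 CPM with chidamide and 21.8 CPM with vehicle under the JeKo-1 label, and 141 CPM with chidamide and 37.1 CPM with vehicle in Granta-519. For HRK the nearest were FGR at 0.32, PRKCZ at 0.34 and ASPH at 0.36. FGR, a kinase of the SRC family, averaged 239 CPM with chidamide and 207 CPM with vehicle under the JeKo-1 label, and 53.1 CPM with chidamide and 11.4 CPM with vehicle in Granta-519.

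The antiapoptotic genes whose products the BH3-only proteins bind were read beside them. Under the JeKo-1 label 4 of 5 tested genes rose and 0 fell, and in Granta-519 3 rose and 2 fell. Among all tested genes 35.3% rose and 31.1% fell under the JeKo-1 label, and 39.6% rose and 31.3% fell in Granta-519. BCL2 stood at 42.8, 40.5 and 42.8 CPM with chidamide and 22.8, 23.9 and 23.8 CPM with vehicle under the JeKo-1 label. In Granta-519 it stood at 699, 714 and 774 CPM with chidamide and 584, 599 and 602 CPM with vehicle. BCL2 was thus higher with chidamide in both lines, and far higher in Granta-519 than under the JeKo-1 label. BCL2L1, which encodes BCL-XL, changed by 0.56 ± 0.06 under the JeKo-1 label (edgeR, adjusted p = 2.58e-13) and by −0.25 ± 0.06 in Granta-519 (edgeR, adjusted p = 0.000546). BCL2L2, which encodes BCL-W, changed by 0.01 ± 0.11 under the JeKo-1 label (edgeR, adjusted p = 0.998) and by −0.97 ± 0.13 in Granta-519 (edgeR, adjusted p = 4.41e-09). MCL1, the partner of NOXA, rose by 0.30 ± 0.04 under the JeKo-1 label and by 0.15 ± 0.04 in Granta-519, and BCL2A1, which encodes BFL1, by 1.31 ± 0.07 and 0.58 ± 0.06. With no filter on low counts the Granta-519 change of MCL1 was 0.04 and did not pass (edgeR, adjusted p = 0.430). BCL2L10 was not tested, with 2 to 7 counts per group. The change was more positive under the JeKo-1 label for all 5 tested genes, where 20% of all tested genes passed in that direction. For MCL1 this difference was 0.14 ± 0.06 and missed the threshold when 1 of 8 libraries was left out (edgeR, adjusted p between 0.0510 and 0.143). These were the 3 Granta-519 chidamide libraries, Granta-519 vehicle replicates 2 and 3, and chidamide replicates 1 and 2 and vehicle replicate 2 of the JeKo-1 label.

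Further down the pathway, 4 of 10 apoptosome and caspase genes rose and 5 fell under the JeKo-1 label. In Granta-519 3 rose and 6 fell. Of all tested genes, 66.4% were called in either direction under the JeKo-1 label and 70.9% in Granta-519. The apoptosome scaffold gene APAF1 stood at 61, 58.5 and 62.3 CPM with chidamide and 23.6, 24.5 and 26.2 CPM with vehicle under the JeKo-1 label. Granta-519 libraries held 76.7, 76.8 and 82.6 CPM with chidamide and 52.9, 50.8 and 56.8 CPM with vehicle. Its rise was 1.30 ± 0.07 under the JeKo-1 label and 0.56 ± 0.06 in Granta-519. CASP9, the initiator caspase that APAF1 recruits, changed by −0.55 ± 0.10 under the JeKo-1 label (edgeR, adjusted p = 3.78e-06) and by −0.49 ± 0.17 in Granta-519 (edgeR, adjusted p = 0.00903). The Granta-519 call was lost without chidamide replicate 2 or vehicle replicate 2 (edgeR, adjusted p = 0.0696 and 0.0528). CASP6, an executioner caspase gene, changed by 1.04 ± 0.15 under the JeKo-1 label and −0.66 ± 0.11 in Granta-519. ENDOG, a mitochondrial nuclease gene, and HTRA2, a mitochondrial protease gene, fell in both lines.

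Among 5 inhibitor of apoptosis genes, 2 rose and 2 fell under the JeKo-1 label, and 3 rose and 1 fell in Granta-519. Beside this list and the relatives below, 35.3% of all tested genes rose and 31.1% fell under the JeKo-1 label. The shares in Granta-519 were 39.6% and 31.3%. BIRC3, which encodes the ubiquitin ligase cIAP2, rose by 0.65 ± 0.05 under the JeKo-1 label and by 1.25 ± 0.05 in Granta-519, and BIRC2 by 0.43 ± 0.07 and 0.41 ± 0.07. The falls under the JeKo-1 label were those of XIAP, at −0.15 (edgeR, adjusted p = 0.0257), and BIRC5, which encodes survivin. The XIAP call was lost with each other scaling, no count filter, the DESeq2 test, the length-scaled score and fewer groups. It was also lost without chidamide replicate 2 or 3 or vehicle replicate 1 or 3 of that label, which left BIRC5 alone. In Granta-519 the fall was that of BIRC5 too, and it was lost with upper-quartile scaling, the DESeq2 test, or chidamide replicate 2 left out (edgeR, adjusted p = 0.0700 without that library). Of 7 tested further relatives of the family, 0 rose and 4 fell in each line, although with upper-quartile scaling 1 rose and 2 fell in each. In Granta-519 the count of falls was 1 without chidamide replicate 1 and 2 without chidamide replicate 2 or vehicle replicate 3. BOK, a BAX-like gene at low counts, changed by −1.28 ± 0.33 under the JeKo-1 label (edgeR, adjusted p = 0.000555) and by −0.89 ± 0.56 in Granta-519 (edgeR, adjusted p = 0.145). BNIP3, which encodes a mitochondrial protein of hypoxia and mitophagy, changed by −0.90 ± 0.29 under the JeKo-1 label (edgeR, adjusted p = 0.00571) and by −0.35 ± 0.11 in Granta-519 (edgeR, adjusted p = 0.00421). Those calls were lost without chidamide replicate 3 of the JeKo-1 label and without Granta-519 chidamide replicate 1 (edgeR, adjusted p = 0.0544 and 0.0530). BNIP1 changed by −0.25 ± 0.12 under the JeKo-1 label (edgeR, adjusted p = 0.0583), a value that passed without chidamide replicate 3, and by −0.54 ± 0.13 in Granta-519 (edgeR, adjusted p = 0.000238).

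Of 14 tested genes whose products hold or activate the BH3-only proteins and pore formers, 4 rose and 7 fell under the JeKo-1 label, and 6 rose and 5 fell in Granta-519. Of all tested genes, 70.9% in Granta-519 and 66.4% under the JeKo-1 label were called in either direction. Falls in this list under that label numbered 4 with each other scaling, no count filter, the DESeq2 test and fewer groups. They numbered 3 on the length-scaled score with either pseudocount, and 4 without chidamide replicate 2 or 3 or vehicle replicate 1. YWHAH, which encodes a 14-3-3 protein of the family that binds BAD, fell by 0.61 on the log2 scale under the JeKo-1 label and by 0.69 in Granta-519, and YWHAB fell by 0.37 and 0.33. USP9X, which encodes a deubiquitinase that stabilises MCL1, rose by 0.36 ± 0.04 under the JeKo-1 label and by 0.34 ± 0.04 in Granta-519. VDAC2, which encodes the channel protein that holds BAK, changed by −0.25 ± 0.05 under the JeKo-1 label and by −0.63 ± 0.05 in Granta-519. On the length-scaled score the VDAC2 call under the JeKo-1 label was lost (limma, adjusted p = 0.0650 and 0.0663 with pseudocounts of 0.1 and 1). CASP10, an initiator caspase gene of the death receptors, had 11, 5 and 18 counts with chidamide and 0, 0 and 1 with vehicle under the JeKo-1 label. In Granta-519 it had 307, 276 and 246 counts with chidamide and 113, 98 and 83 with vehicle, a log2 change of 1.58 ± 0.14 (edgeR, adjusted p = 7.30e-15).

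Transcription factors known to act on the BH3-only genes moved in both directions, with 5 rising and 7 falling of 13 under the JeKo-1 label and 5 rising and 6 falling in Granta-519. Calls in either direction took in 66.4% of all tested genes under the JeKo-1 label and 70.9% in Granta-519. FOXO1 and FOXO3 encode forkhead factors for which BCL2L11 is a known target. FOXO1 stood at 134, 147 and 138 CPM with chidamide and 96.8, 92.1 and 95.3 CPM with vehicle under the JeKo-1 label. In Granta-519 it stood at 29.8, 29.3 and 28.3 CPM with chidamide and 3.26, 4.62 and 4.86 CPM with vehicle. The Granta-519 vehicle libraries were the lowest, as they were for BCL2L11 and HRK. With chidamide, FOXO1 in Granta-519 stayed below every library labelled JeKo-1, as HRK did and BCL2L11 did not. The part of FOXO1 in the levels of these genes was not tested. FOXO1 changed by 0.56 ± 0.06 on the log2 scale under the JeKo-1 label (edgeR, adjusted p = 4.12e-13). In Granta-519 it changed by 2.78 ± 0.10 (edgeR, adjusted p = 2.90e-30). FOXO3 changed by 1.33 ± 0.07 under the JeKo-1 label and by 0.94 ± 0.07 in Granta-519. E2F1 changed by −0.87 ± 0.04 under the JeKo-1 label and −0.42 ± 0.05 in Granta-519, JUN by 1.56 ± 0.14 and 0.68 ± 0.09, and MYC by −0.70 ± 0.04 under the JeKo-1 label and 0.54 ± 0.05 in Granta-519. DDIT3, which encodes the stress factor CHOP, changed by −0.44 ± 0.17 under the JeKo-1 label (edgeR, adjusted p = 0.0194) and by −0.53 ± 0.13 in Granta-519 (edgeR, adjusted p = 0.000209). The call under the JeKo-1 label was lost with upper-quartile scaling, library totals and the length-scaled score, and without chidamide replicate 2 or vehicle replicate 2 or 3 (edgeR, adjusted p = 0.103, 0.0737 and 0.0607 without those libraries).

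**Figure D5:**
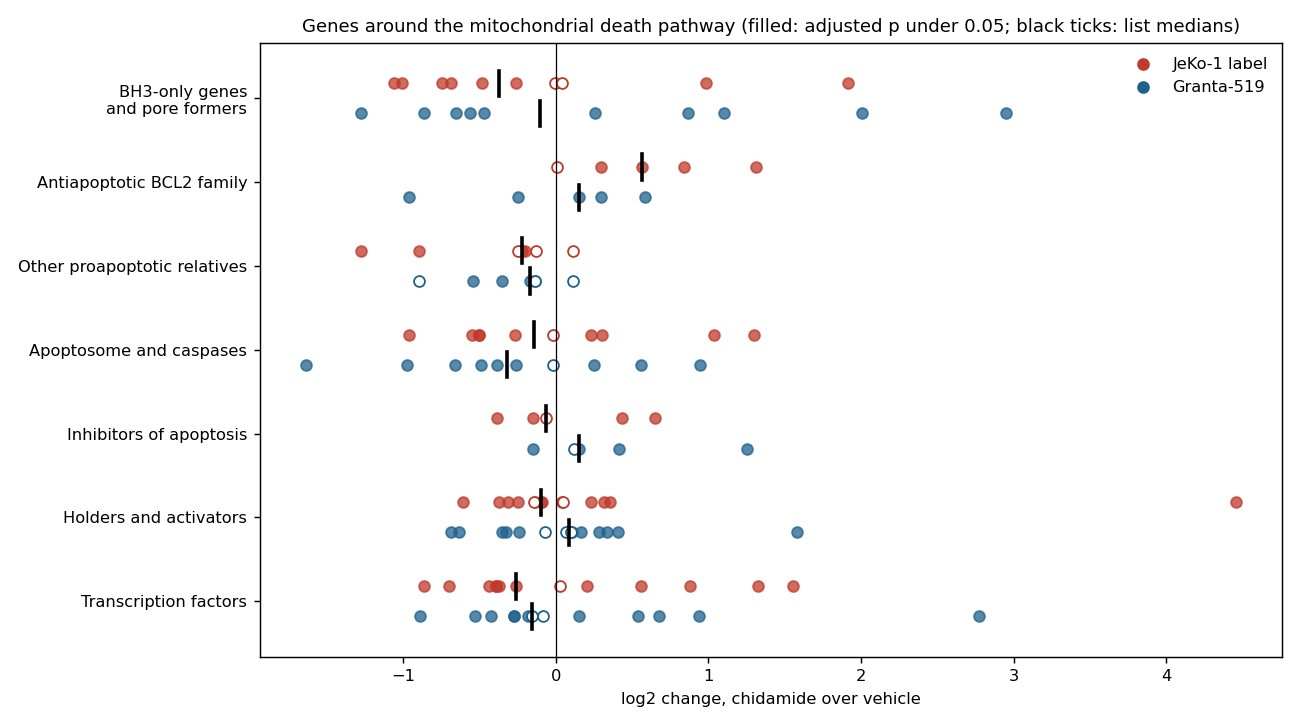
Log2 change with chidamide over vehicle (x axis) for tested genes of the 7 lists, with the JeKo-1 label in red and Granta-519 in blue; each point is a gene, filled where its edgeR adjusted p was under 0.05, and black ticks are list medians. The median of the BH3-only genes and pore formers is −0.37 under the JeKo-1 label and −0.11 in Granta-519, and that of the antiapoptotic genes is 0.56 and 0.15.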

How the data were processed

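The 12 polyadenylated RNA libraries were analysed from 2 tables. The authors deposited raw counts for each gene symbol in whole numbers. Per the submitters' processing notes, STAR and hg19 were used; no source used here states the counting tool, annotation or strand setting. The score values came from a second table that the authors deposited and named as TPM, with column sums of 81790 to 84121. From its values, each score is the count of a gene divided by the library total and by a constant of the gene, which varied by at most 0.597%. That table also had 6 unnamed columns, which held no values and were not used. Dates had replaced 28 gene names among the counts.

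Counts were filtered with filterByExpr in edgeR 4.0.16 (R 4.3.3) and scaled by TMM. A robust quasi-likelihood model of 4 group means took all 12 libraries (8 residual degrees of freedom). The Benjamini-Hochberg adjustment ran over 15087 genes, and adjusted p-values under 0.05 were called. The common biological coefficient of variation came to 0.0422. Each SE is approximate, being the size of the log2 change over the root of its F statistic. No 2 replicates agreed within sampling noise (chi-square per gene 1.62 to 5.39). Alternatives were other scalings, no count filter, a replicate block, DESeq2 1.42.0, limma 3.58.1 on log2(score + 0.1) and log2(score + 1), fewer groups, and each library left out. CPM per kilobase and the alternatives for the listed pathway genes were added after seeing the data. Scripts were tested on simulated data.

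The genes and lists were chosen with earlier results of these data known. In lists of up to 6 genes any may be named; in longer ones those with the largest rises and falls in each line, up to 2 each, and any gene the list turns on. Under that rule 2 genes are not reported here, although the counts of their lists include them. Overlaps and transcript lengths are from GENCODE 29, and promoter windows from RefSeq tables (9 of 10 genes matched).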

Additional observations from a re-analysis of the deposited data

Results flagged for a closer look

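Of the 10 genes, 3 were flagged because the chidamide effect itself differed between the lines. The interaction test (edgeR's quasi-likelihood test, adjusted over all tested genes) also called 39.5% of all tested genes. A call by itself therefore does not set the 3 apart. The differences, JeKo-1 label minus Granta-519 on the log2 scale, were −1.11 for BCL2L11, −0.94 for BIK and −2.91 for HRK. That of HRK rests on 1, 4 and 4 counts in the Granta-519 vehicle libraries. BCL2L11 and HRK stood near their vehicle levels under the JeKo-1 label and rose in Granta-519, and BIK fell under the label and rose in Granta-519.

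Of the 31 genes that may be named around them, 21 differed by the same test and 1, BCL2L10, was not tested. Many of these were taken for the size of their change, so the count is not read against all tested genes. In the antiapoptotic list the differences were 0.55 for BCL2, 0.81 for BCL2L1, 0.97 for BCL2L2, 0.14 for MCL1 and 0.73 for BCL2A1. In the apoptosome list they were 0.74 for APAF1, 1.7 for CASP6, 0.48 for HTRA2 and 0.67 for ENDOG; the last missed the threshold without chidamide replicate 2 of the JeKo-1 label, at 0.53 (edgeR, adjusted p = 0.0680). Among inhibitors of apoptosis they were −0.27 for XIAP, −0.6 for BIRC3, −0.24 for BIRC5 and −0.21 for BIRC6; those of XIAP, BIRC5 and BIRC6 missed the threshold with library totals alone, with no count filter and on the score. Among genes that hold or activate the BH3-only proteins they were −0.5 for YWHAG, 0.39 for VDAC2 and 2.88 for CASP10.

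The CASP10 value rests on 1 count over the vehicle libraries labelled JeKo-1. It missed the threshold without chidamide replicate 3 or vehicle replicate 1 or 2 of that label (edgeR, adjusted p = 0.0669, 0.0826 and 0.0595), and its sign turned on the length-scaled score. Among transcription factors the differences were −2.21 for FOXO1, 0.39 for FOXO3, −0.44 for E2F1, 0.88 for JUN and −1.24 for MYC. MYC fell under the JeKo-1 label and rose in Granta-519.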

How the results depend on the processing

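Across 21 alternatives, 39 of 50 results on the 10 genes kept their direction and their side of the threshold, and 755 of 800 values did so, while 25 lost the call, 16 gained it and 4 reversed. The reversals were BCL2L11 under the JeKo-1 label, whose log2 change of −0.01 became 0.14 with upper-quartile scaling, 0.12 with library totals alone, and 0.12 and 0.10 on the length-scaled score with pseudocounts of 0.1 and 1. The scalings shifted the median of all genes there by 0.15 and 0.13. The score also divides a count by the library total, with no TMM factor. With a pseudocount of 0.1 it gave 0.1235, beside 0.1231 with library totals alone. The part of scaling in the reversals was not tested.

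The count of the 10 genes with a higher change under the JeKo-1 label than in Granta-519 was 0 and became 1 with upper-quartile scaling, 2 with library totals, 3 with no count filter, and 1 on the score with either pseudocount, and ran between 0 and 1 as each library was left out. Over all tested genes the lower differences numbered 2941 and became 1918 with library totals and 1733 with no filter, and the higher ones 3015 and 4669 with no filter, where higher calls made up 72.9% in place of 50.6%. With chidamide, 2 of the 10 genes were higher under the JeKo-1 label, and 1 with DESeq2 size factors, upper-quartile scaling, the DESeq2 Wald test and the score with either pseudocount, and between 1 and 2 as each library was left out. The gene that left was BAD.

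On log2(score + 1), which compresses low scores, BMF changed by 0.50 under the JeKo-1 label and 0.70 in Granta-519, its difference of −0.20 passed (limma, adjusted p = 0.00156), and HRK changed by 0.20 in Granta-519. With no filter the differences of BBC3, PMAIP1 and BAD passed, at 0.46, 0.28 and 0.42 (edgeR). Of 90 results on 30 named list genes, 65 were alike in every alternative. YWHAG under the JeKo-1 label changed by −0.09 and reversed to 0.0551 with upper-quartile scaling, 0.0395 with library totals, and 0.0435 and 0.0424 on the score with pseudocounts of 0.1 and 1. The CASP10 difference of 2.88 reversed to −0.93 and −0.36 on the score with pseudocounts of 0.1 and 1.

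The correlations do not settle whether replicate numbers pair the libraries. Same-number values were 0.051, 0.092 and −0.019 under the JeKo-1 label and 0.096, 0.039 and 0.16 in Granta-519. Different-number values ran between −0.11 and 0.076 under the JeKo-1 label and between −0.127 and 0.047 in Granta-519. With the replicate block the counts of the 10 genes were as reported, except that 4 in place of 3 had a lower change under the JeKo-1 label, BAX joining at −0.19 (edgeR, adjusted p = 0.0274). The difference was not refitted on fewer groups, since it uses all 4. Depth limits HRK most.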
